A study of Homo sapiens with 8 samples.

Results

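The apolipoprotein L family consists of 6 genes, APOL1 to APOL6, on chromosome 22, out of 20033 protein-coding genes with an annotated promoter. For each gene, the H3K4me3 peaks within 3 kb on either side of the 5′ end of its MANE Select transcript were collected, which gave 31 of the 139749 peaks in the 6 lists. H3K4me3, trimethylation of histone H3 at lysine 4, marks active promoters. The cells were clones of U2OS, a human osteosarcoma line, either wild type (WT) or knockout (KO) for ZBTB48, a zinc finger protein that binds telomeric repeats and some promoters. All clones, WT and KO alike, had received interferon gamma (IFNγ) at 250 U/ml, for 24 h by the sample records. A figure legend of the paper gives a longer time for H3K4me3 tracks of U2OS WT and KO clones. Each genotype had 3 libraries, each from its own clone. Untreated cells were not among the samples, and induction by IFNγ could thus not be compared. A further 2 WT input libraries were not analysed here.

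Apolipoprotein L proteins bind lipids and membranes, and most genes of the family respond to interferons. APOL1 is the secreted serum protein that lyses trypanosomes, whereas APOL2 and APOL3 remain inside the cell, where APOL3 disrupts the membranes of invading bacteria. APOL6 has been linked to apoptosis. IFNγ signals through the JAK kinases, and its target promoters carry gamma-activated sites or interferon-stimulated response elements, the latter bound by IRF1.

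In the data, APOL1, APOL2, APOL3 and APOL6 carried a peak in all 6 libraries, APOL4 in 5 and APOL5 in none. At the covered genes the length under peaks within 3 kb was greater on average in WT than in KO. The difference ran from 440 bp at APOL1 to 1585 bp at APOL3, against a median of 965 bp over all covered promoters. Every WT library exceeded every KO library at 3 of the 5 covered genes, and 50.8% of all covered promoters did so too. APOL3 had a higher rank by length in every WT library than in every KO library, as 7.13% of covered promoters did. At APOL4 the covered stretch within 1 kb of the 5′ end was shorter in every KO library, as at 38.7% of promoters covered there, and KO replicate 1 had no peak.

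The 6 windows span 611 kb. From low to high coordinates on GRCh38 the genes, each with the extent of the whole gene and not of its window, are APOL6 (ENSG00000221963, 35648446 to 35668404, plus strand), APOL5 (ENSG00000128313, 35717872 to 35729483, plus), APOL3 (ENSG00000128284, 36140329 to 36166177, minus), APOL4 (ENSG00000100336, 36189124 to 36204840, minus), APOL2 (ENSG00000128335, 36226209 to 36239954, minus) and APOL1 (ENSG00000100342, 36253071 to 36267530, plus). The nearest pair of 5′ ends, those of APOL2 and APOL1, are 13606 bp apart and point away from each other, so no windows overlapped.

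The 250 bases upstream of each 5′ end in the reference genome were searched on both strands for 3 motifs, because the genes are known for their interferon response and ZBTB48 binds telomeric repeats. The core of the interferon-stimulated response element, GAAA repeated after a gap of any 2 bases, was found upstream of 4 of the 6 genes and of 2.84% of all 20032 promoters searched. In APOL1, APOL2 and APOL3 it lay at the same place, from 59 to 50 bases upstream and on the strand opposite to the gene. APOL1 and APOL2 had another match from 53 to 44 bases upstream that shares letters with it. In APOL6 it lay from 88 to 79 bases upstream on the gene's own strand. TTCNNNGAA, the gamma-activated site, was found from 57 to 49 bases upstream of APOL6, at 85 to 77 and 66 to 58 bases upstream of APOL4, and in 5.67% of all promoters. No match of different motifs overlapped in a member. APOL5, the gene with no peak, had neither motif. TTAGGG, the telomeric repeat, occurred at APOL3 alone among the members, from 234 to 229 bases upstream, and in 7.71% of all promoters. A match describes letters and is not evidence of binding. The APOL genes are related in sequence, so matches at the same place in several members need not be independent.

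All 6 promoters were poor in CpG dinucleotides. The ratio of observed to expected CpG was 0.0977 to 0.316 in the 250 upstream bases, against a median of 0.749 over all promoters and of 0.842 over those with a peak in all 6 libraries. APOL2 had the highest ratio of the family, at percentile 20.5 of all promoters, and APOL5 the lowest, at percentile 5.66.

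Before the values, a feature of the lists has to be stated. WT replicates 1 and 2 had wide peaks, with a median width of 2297 and 2353 bp and a median fold enrichment over background of 13.4 and 14.0. WT replicate 3 and the KO lists had medians of 1275 to 1487 bp and of 4.19 to 4.65. The number of peaks ranged from 21712 to 26370 and did not follow this division. Each comparison of length is thus given also for WT replicate 3 against the KO libraries, with no test, and as the rank of a promoter within its own library. The lists hold no read counts, so the depth behind a peak is unknown here and an absent peak means only that none was called. ZBTB48 itself had a peak within 3 kb in all 6 libraries, which does not check the knockout. Among osteoblast-lineage markers, RUNX2, SPARC and COL1A1 had a peak in all libraries, while COL1A2 and ALPL had none. Markers of blood cells and endothelium (PTPRC, CD3E and CDH5) had no peak in any library, and the epithelial marker EPCAM had one in each. TERT, which encodes the catalytic subunit of telomerase, had a peak in the KO lists and in no WT list. Its covered length within 3 kb was 966, 247 and 289 bp in KO replicates 1, 2 and 3. A greater length in every KO library was found at 0.111% of covered promoters. Whether these peaks lay over the TERT 5′ end is not given here, and no cause was tested.

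**Figure D1:**
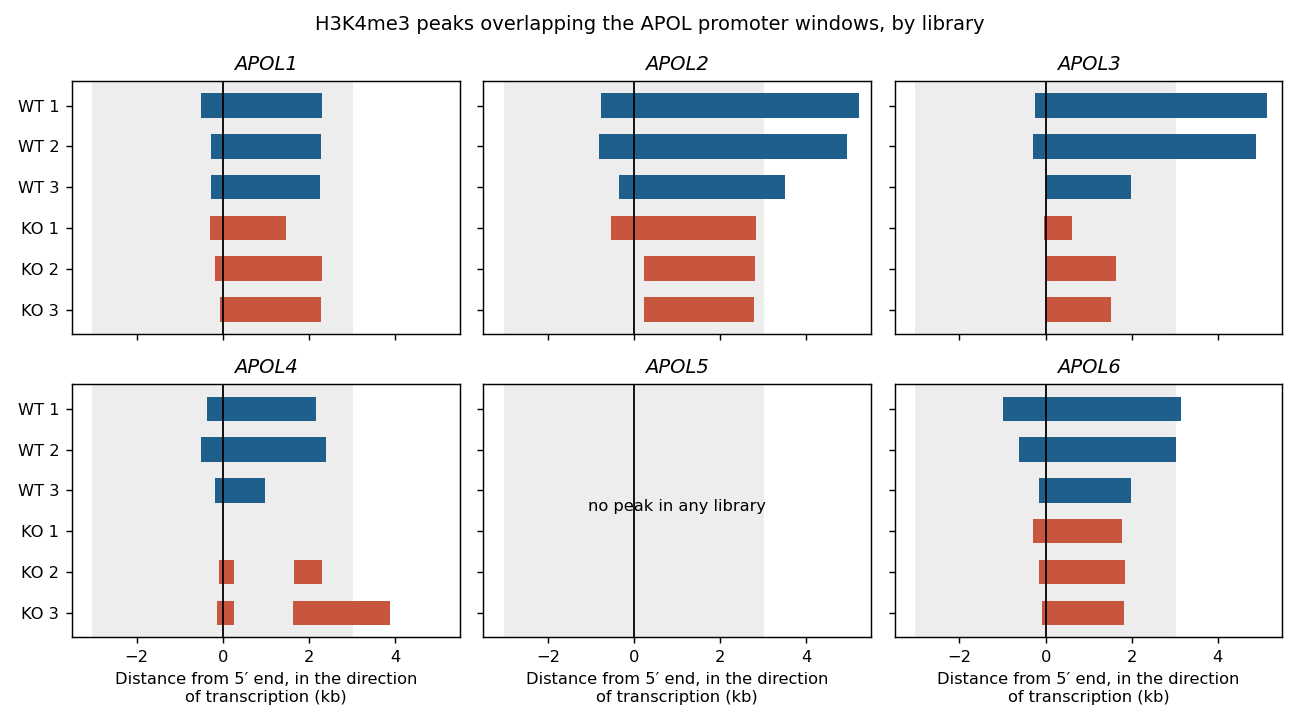
Peaks overlapping the window of 3 kb on either side of each APOL 5′ end (grey), drawn by distance from the 5′ end in kb, with 1 row per library (WT blue, KO red). APOL1 and APOL6 keep a peak over the 5′ end in all 6 libraries, APOL4 has broken or missing peaks in the KO libraries, and APOL5 has none.

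Counting a gene as called when any peak touched its window, 5, 5 and 5 members were called in WT replicates 1, 2 and 3, and 4, 5 and 5 in KO replicates 1, 2 and 3. WT averaged 5 ± 0 and KO 4.67 ± 0.577 (SD, n = 3 each), and the whole difference was the missing APOL4 call in KO replicate 1. A peak in all 6 libraries was found at 66.9% of all protein-coding promoters and at 4 of the 6 APOL genes, a share near this background. A peak in no library, as at APOL5, was found at 28% of them. A peak in all WT libraries that was missing from at least 1 KO library, as at APOL4, was found at 1.27% of the 13572 promoters called in all WT libraries.

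APOL6 had the highest −log10 q of the family in every library, although the fold enrichment was higher at APOL1 in WT replicate 3 and in the KO libraries. The peaks at its 5′ end (35648446) had a −log10 q, the strength of the call, of 169, 133 and 64.5 in WT replicates 1, 2 and 3 and of 55.8, 58.4 and 73.2 in KO replicates 1, 2 and 3. Each peak began 74 to 998 bp upstream, covered exon 1 (35648446 to 35648623) and ended in intron 1. The covered length within 3 kb was 3999, 3619 and 2140 bp in WT replicates 1, 2 and 3 and 2054, 2016 and 1905 bp in KO replicates 1, 2 and 3. The groups did not overlap, but the lowest WT value stood only 86 bp above the highest KO value. WT averaged 3253 ± 982 bp and KO 1992 ± 77.4 bp (SD, n = 3 each), a difference of 1261 bp (two-sided exact permutation p = 0.1, adjusted over all covered promoters 0.196). With 3 libraries a group this test cannot give a p below 0.1, so no gene could pass a threshold of 0.05, and none of the 14422 promoters with any coverage did before or after adjustment. By rank, APOL6 stood at a mean percentile of 66.2 ± 5.94 among covered promoters in WT and of 64.2 ± 4.10 in KO (SD, n = 3 each; exact permutation p = 0.8).

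APOL1 (5′ end 36253133) also had a peak over its 5′ end in every library. The covered length was 2807, 2571 and 2542 bp in WT replicates 1, 2 and 3 and 1771, 2487 and 2343 bp in KO replicates 1, 2 and 3. The groups did not overlap, with 55 bp between the nearest values, and KO replicate 1 stood apart below the others. WT averaged 2640 ± 145 bp and KO 2200 ± 379 bp (SD, n = 3 each), a difference of 440 bp (exact permutation p = 0.1, adjusted 0.196). Without KO replicate 1 the difference fell to 225 bp (exact permutation p = 0.2). The far edge of the peak was nearly fixed in 5 libraries, at 2259 to 2313 bp downstream, where the peak reached exon 2, and lay 1471 bp downstream, before exon 2, in KO replicate 1.

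The APOL1 peak did not share the widening of WT replicates 1 and 2. Its rank was percentile 34.3 and 25.8 in those lists, 79.9 in WT replicate 3, and 39.8, 86.0 and 86.0 in KO replicates 1, 2 and 3. The mean rank was thus lower in WT, at 46.6 ± 29.1 (SD, n = 3), than in KO, at 70.6 ± 26.7 (SD, n = 3), the reverse of the order in bp, and the groups overlapped (exact permutation p = 0.2).

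At APOL2 (5′ end 36239527) the covered length was 3767, 3815 and 3355 bp in WT replicates 1, 2 and 3 and 3368, 2582 and 2548 bp in KO replicates 1, 2 and 3. In covered length KO replicate 1 fell among the WT values and the groups overlapped by 13 bp. WT averaged 3646 ± 253 bp and KO 2833 ± 464 bp (SD, n = 3 each), a difference of 813 bp (exact permutation p = 0.2, adjusted 0.245). The WT peaks ran past the downstream edge of the window and were cut there, while the KO peaks lay inside it. Whole peaks measured 5985, 5750 and 3860 bp in WT replicates 1, 2 and 3, against 3368, 2582 and 2548 bp in KO. The peaks of KO replicates 2 and 3 began 232 and 237 bp downstream of the 5′ end, in intron 1, whereas the other 4 libraries covered the 5′ end and 354 to 814 bp upstream of it. APOL2 transcripts start over a stretch from 36239227 to 36239954, and a peak reached into this stretch in all 6 libraries. The APOL2 peak ranked high among covered promoters, with mean percentiles of 77.0 ± 15.5 for WT and 91.4 ± 3.46 for KO (SD, n = 3 each), so the order was again the reverse of that in bp, without separation (exact permutation p = 0.3).

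APOL3 (5′ end 36160755) had peaks with a −log10 q of 29.5, 20.3 and 8.47 in WT replicates 1, 2 and 3 and of 3.30, 6.92 and 14.5 in KO replicates 1, 2 and 3, and the genotypes overlapped. The covered length was 3248, 3284 and 1987 bp in WT replicates 1, 2 and 3 and 642, 1599 and 1522 bp in KO replicates 1, 2 and 3. All WT libraries exceeded all KO libraries, and the shortest peak was again in KO replicate 1. The peaks of WT replicate 3 and of KO replicates 2 and 3 began 1 to 42 bp downstream of the 5′ end, inside exon 1 (36160669 to 36160755). WT averaged 2840 ± 739 bp and KO 1254 ± 532 bp (SD, n = 3 each), a difference of 1585 bp, or 2.26 times as long in WT (exact permutation p = 0.1, adjusted 0.196).

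APOL3 was the member at which rank separated the groups as well. Its percentile was 49.0, 52.4 and 52.1 in WT and 2.22, 38.7 and 40.4 in KO replicates 1, 2 and 3. The means were 51.2 ± 1.87 and 27.1 ± 21.6 (SD, n = 3 each), and the rank was higher in every WT library (exact permutation p = 0.1). KO replicate 1 set much of this size: without it the groups stayed apart, but the difference in percentile fell from 24.1 to 11.6 points (exact permutation p = 0.1). Such a separation in rank, in the direction of WT, was found at 7.13% of covered promoters. Within 1 kb of the 5′ end, however, the 998 bp of WT replicate 3 did not exceed the 1000 bp of KO replicate 3 and the groups overlapped (exact permutation p = 0.2). The difference within 1 kb was 309.7 bp, so most of the 1585 bp lay further into the gene.

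The APOL3 gene has other annotated starts. A cluster of 5 lies 3806 to 3870 bp downstream of the MANE Select 5′ end, inside the gene, and had a peak in all 6 libraries. In WT replicates 1 and 2 a peak of 5393 and 5174 bp joined it to the main promoter, while in the other 4 libraries a separate peak lay over it. The start at -5422 bp, upstream of the promoter, had no peak in any library. With the windows of all annotated starts joined, the covered length was 5393, 5174 and 2832 bp in WT and 1617, 2204 and 2142 bp in KO replicates 1, 2 and 3, a difference of 2479 bp (exact permutation p = 0.1).

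APOL4 (5′ end 36201809) had the lowest −log10 q of the 5 covered genes in each library with a peak there. In each WT library a peak spanned exon 1 and the 5′ end, of 2526, 2892 and 1165 bp in replicates 1, 2 and 3, with −log10 q of 5.92, 6.42 and 7.04. KO replicate 1 had no peak in the window, and its nearest was 34881 bp away, although its list held more peaks than any other. KO replicates 2 and 3 each had a short peak over the 5′ end, of 366 and 388 bp with −log10 q of 4.24 and 4.36, and a further, weaker peak beginning 1659 and 1622 bp downstream with −log10 q of 1.73 and 2.05.

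Over the whole window the APOL4 covered length was thus 0, 1004 and 1767 bp in KO, and KO replicate 3 exceeded the 1165 bp of WT replicate 3. WT averaged 2194 ± 910 bp and KO 924 ± 886 bp (SD, n = 3 each), a difference of 1271 bp (exact permutation p = 0.2, adjusted 0.245). Without KO replicate 1 the difference was 809 bp (exact permutation p = 0.3). The rank overlapped widely, with mean percentiles of 23.6 ± 15.2 for WT and 21.8 ± 31.6 for KO (SD, n = 3 each; exact permutation p = 1).

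Closer to the APOL4 5′ end the groups were apart, while the other covered members overlapped within 1 kb. Within 1 kb the covered length was 1367, 1499 and 1165 bp in WT replicates 1, 2 and 3 and 0, 366 and 388 bp in KO replicates 1, 2 and 3. WT averaged 1344 ± 168 bp and KO 251 ± 218 bp (SD, n = 3 each), a difference of 1092 bp (exact permutation p = 0.1). Every WT library exceeded every KO library, as at 38.7% of promoters covered within 1 kb. In this window the count of members without overlap was 1 of the 5 covered, in place of 3 of the 5 covered within 3 kb. The differences of 167 bp at APOL1 and 415 bp at APOL6 within 1 kb came with overlapping libraries (exact permutation p = 0.3 for each). WT replicate 3, which resembles the KO lists in peak width, exceeded the highest KO value by 777 bp, and a lead at least as large was found at 0.717% of the 13807 promoters covered within 1 kb in these 4 lists. Within 3 kb the same lead was -602 bp, and 93.8% of promoters had a lead at least as large. The 1 kb comparison was singled out for its values, so its share is a description and no test. Removing peaks with −log10 q under 3, which took away the downstream KO peaks, gave the KO values of the 1 kb window over the full window too. The WT excess was then 1943 bp (exact permutation p = 0.1). At this threshold 51.6% of covered promoters were longer in every WT library. The APOL4 starts near 36204715 to 36204840, which lie upstream at -3031 to -2906 bp, had no peak in any library.

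APOL5 (5′ end 35717872) had no peak within 3 kb in any library, and the covered length is listed as 0 in all 6. The nearest peak was that of APOL6, 66273 to 67656 bp away. No difference between genotypes was detectable there.

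**Figure D2:**
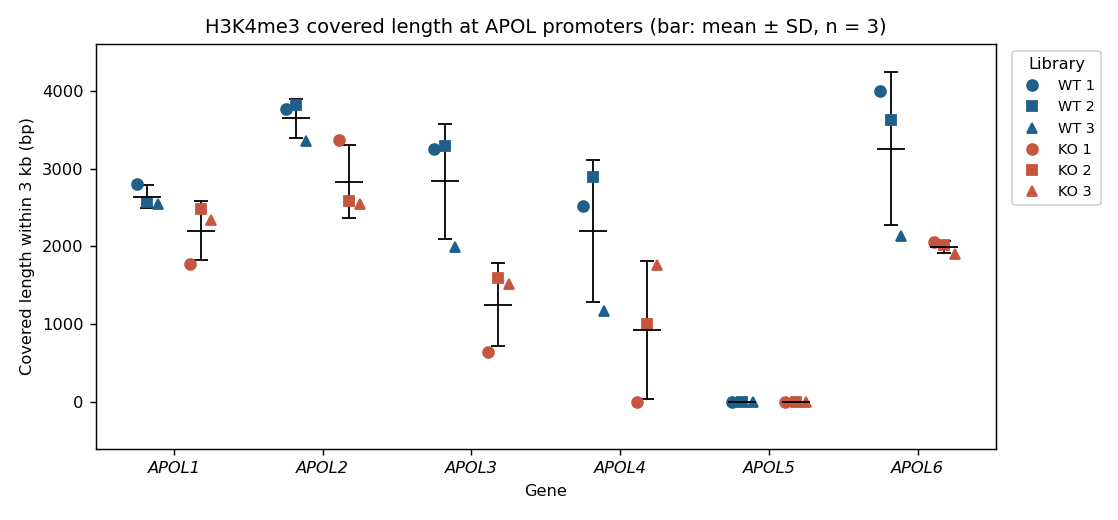
Covered length in bp under H3K4me3 peaks within 3 kb of the 5′ end of each APOL gene, with a point per library (WT blue, KO red, shape by replicate number) and the mean ± SD of 3 libraries in black. WT values exceed KO values without overlap at APOL1, APOL3 and APOL6, where WT replicate 3 lies nearest to the KO values.

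Summed over the 6 genes, the covered length was 16347, 16181 and 11189 bp in WT replicates 1, 2 and 3 and 7835, 9688 and 10085 bp in KO replicates 1, 2 and 3. WT averaged 14572 ± 2931 bp and KO 9203 ± 1201 bp (SD, n = 3 each). WT replicate 3 lay nearer to KO replicate 3 than to the other WT libraries. When each library was divided by its median covered length over promoters, the sum was 12045 bp in WT and 12016 bp in KO, a difference of 28.7 bp. The equal sums hid members of opposite sign. On this scale WT minus KO was -613 bp at APOL1, -550 bp at APOL2 and 660.3 bp at APOL3 (exact permutation p = 0.2, 0.3 and 0.1). At APOL4 it was 479.7 bp and at APOL6 51.8 bp, with overlapping libraries (exact permutation p = 0.6 and 0.8). Without KO replicate 1 the scaled difference at APOL3 was 217 bp (exact permutation p = 0.1). After scaling, every WT library was higher at 5.99% of covered promoters, APOL3 among them, and every KO library at 11.9%, with no member among them.

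**Figure D3:**
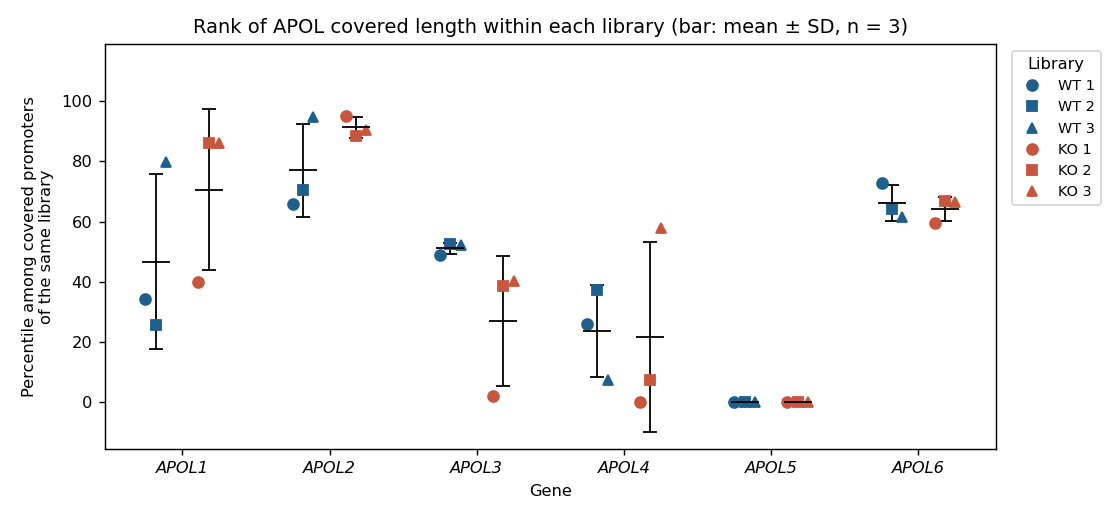
Percentile of each APOL covered length among all covered promoters of the same library, with a point per library (WT blue, KO red, shape by replicate number) and the mean ± SD of 3 libraries in black; an uncovered promoter is drawn at 0. APOL3 is the gene at which the 3 WT points (49.0 to 52.4) lie above the 3 KO points (2.22 to 40.4).

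Against all promoters, 3 of the 5 covered members had a longer covered length in every WT library than in every KO library. Of the 14422 covered promoters, 50.8% did so too. The reverse was found at no member and at 0.111% of covered promoters. The median difference was 1261 bp over the 5 covered members and 965 bp over all covered promoters. Among the differences of all covered promoters, that of APOL1 stood at percentile 13.4, APOL2 at 36.2, APOL6 at 74.3, APOL4 at 74.9 and APOL3 at 89.9. In rank, WT was higher without overlap at APOL3 alone, and KO was higher at no member and at 10.7% of promoters.

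WT replicate 3 on its own exceeded the mean of the KO libraries by 733 bp at APOL3, 522 bp at APOL2, 342 bp at APOL1, 241 bp at APOL4 and 148 bp at APOL6, against a median of 161 bp over all covered promoters. It exceeded every KO library at APOL3 by 388 bp, at APOL6 by 86 bp and at APOL1 by 55 bp, and 54.4% of promoters showed some such lead. At 7.66% of them the lead reached the 388 bp seen for APOL3. The order of the members thus changed between the comparisons, with APOL3 highest in each.

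**Figure D4:**
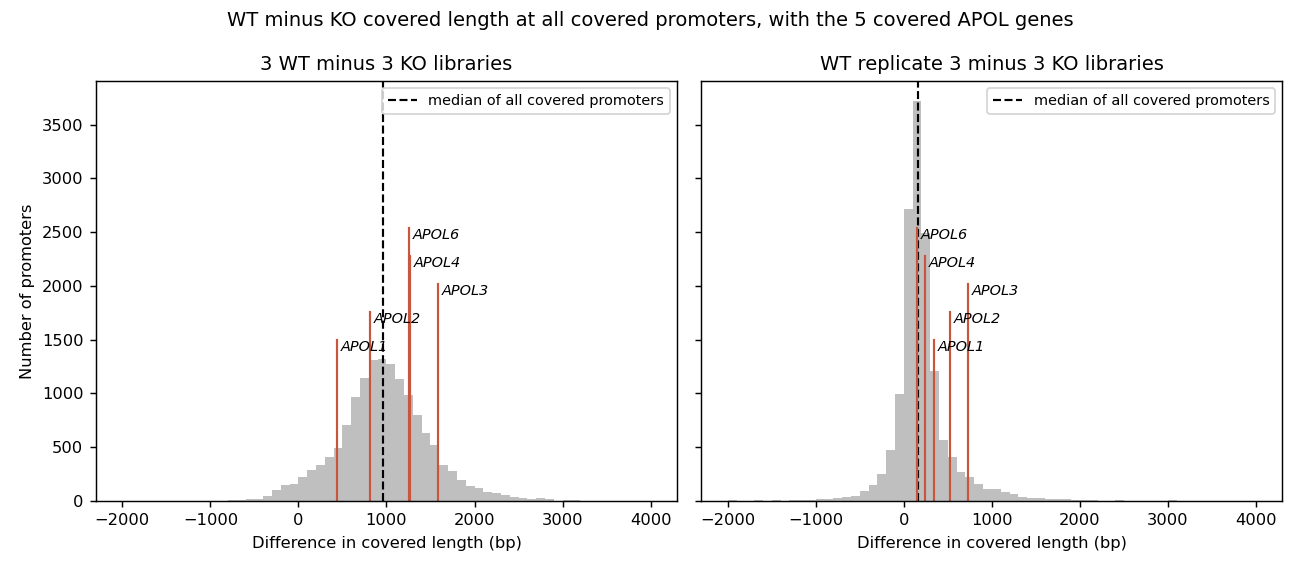
Number of promoters by difference in covered length in bp, for the mean of 3 WT minus the mean of 3 KO libraries (left) and for WT replicate 3 minus the mean of 3 KO libraries (right), over 14422 covered promoters, with values beyond the axis placed in the end bins. Red lines mark the 5 covered APOL genes and the dashed line the median of all covered promoters, which falls from 965 to 161 bp between the panels; APOL3 lies furthest to the right in both.

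The shape of the peaks was also set against the fold enrichment, which was compared only within a list. The best APOL6 peak stood at percentile 94.4 and 75.1 of its list in WT replicates 1 and 2 and at 39.5 to 47.1 in the other 4 libraries. APOL1 showed the opposite, with percentiles of 37.6 and 38.7 in WT replicates 1 and 2 and of 56.3 to 92.8 in the others. The APOL2 percentile was 44.2 and 46.1 in WT replicates 1 and 2 and 14.9 to 29.5 in the others. The APOL3 percentile was 36.4 and 32.4 in WT replicates 1 and 2 and 2.48 to 11.7 in the others. At these 4 genes WT replicate 3 lay nearer to the KO libraries than to the other WT libraries. At APOL4 it stood apart, at percentile 64.0, against 22.6 and 22.3 in WT replicates 1 and 2 and 23.2 and 24.5 in KO replicates 2 and 3.

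Within the stretch from the APOL6 to the APOL1 window the 6 lists merged into 12 regions, of which 5 touched a member's window and 9 were called in all 6 libraries. Of the 7 others, 4 overlapped RBFOX2, a splicing factor gene between APOL5 and APOL3, including its promoter. A region outside any protein-coding gene, from 36123288 to 36124480, lay between RBFOX2 and the 3′ end of APOL3. The nearest outermost 5′ end of an annotated gene was 14870 bp away, and starts of further transcripts were not measured. This region was called in all 6 libraries, with peaks of 697, 406 and 1064 bp in WT and 1193, 536 and 659 bp in KO replicates 1, 2 and 3, and the genotypes overlapped. A region of 506 bp between APOL4 and APOL2, at the 5′ end of a long noncoding RNA, was called in WT replicate 3 alone. Of the 4 neighbouring protein-coding genes within 200 kb of the outermost APOL 5′ ends, RASD2, RBFOX2 and MYH9 had peaks in all 6 libraries and MB, which encodes myoglobin, had none. WT exceeded KO without overlap at RASD2 and RBFOX2, as at 50.8% of covered promoters.

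The guanylate-binding proteins, GTPases of cell-autonomous immunity encoded in a cluster on chromosome 1, are another interferon-induced family. Of 7 GBP genes, 5 had a peak in all 6 libraries and 2, GBP6 and GBP7, in none. The covered length was higher in every WT library at 3 of the 5 covered GBP genes, as at 3 of the 5 covered APOL genes. The median difference was 1465 bp over the 5 covered GBP genes. No GBP gene was higher in WT by rank in every library, and GBP2 was lower. Among 24 other IFNγ-response genes, which include IRF1, TAP1 and CD274, 20 had a peak in all 6 libraries. Of the 23 covered ones, 5 were higher in every WT library in bp, none was so in rank and 4 were lower in rank. For comparison with both lists, 66.9% of all promoters had a peak in all 6 libraries. Of covered promoters, 50.8% were higher in every WT library in bp, 7.13% were so in rank and 10.7% were lower in rank. The median difference of the IFNγ-response genes was 1127 bp over the 23 covered genes. The difference between the APOL family and these lists was not tested.

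The promoters most like each member, by the root mean square difference over the 6 libraries of covered length in units of the library median, were KIN and ATP5F1C for APOL6, PLXNB2 and NIPA2 for APOL2, PTCHD4 and SAMD9 for APOL1, and AHNAK2 and YIF1B for APOL3. The difference was 0.0156 for KIN and for ATP5F1C, 0.0882 for PLXNB2, 0.124 for PTCHD4 and 0.167 for AHNAK2. Among these 4 genes, the closest match was least close for APOL3. APOL4, with no peak in 1 library, was not matched.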

How the data were processed

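H3K4me3 ChIP-seq was analysed in 6 U2OS libraries, 3 WT and 3 ZBTB48 KO, grouped by their labels. Reads were trimmed (trimmomatic) and mapped to GRCh38 (bowtie2 2.3.5.1) by the authors, who discarded duplicates and reads that were unmapped or mapped to several places. They then ran MACS2 2.1.1.2 in broad mode on every library at a q-value of 0.05; versions follow the submitters' processing notes. Whether an input was given to the caller is not given in the sources used here. The APOL genes are related in sequence, and dropping multimapping reads can lower the signal in near-identical stretches.

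Each deposited list gives peak positions, a fold enrichment ratio over local background and −log10 values of p and q, all averaged over a broad peak. These deposited values are given to describe peaks and were used to filter them. They depend on the list, and no test was run on them. The lists hold no counts, so no read-based test was run, depth is unknown and no counting interval was computed.

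Contigs other than chromosomes 1 to 22, X and Y were dropped. Positions are 1-based on GRCh38, with GENCODE release 44 annotation. The 5′ end was that of the MANE Select, or else canonical, transcript of each protein-coding gene. Covered length counted the bases of the window (3 kb each way, 6001 bp) that lay in a peak, and a gene was called when a peak overlapped this window by at least 1 bp. The percentile of a covered length was taken among the covered promoters of the same library. Library values were tested with a two-sided exact permutation test over all 20 ways to assign genotypes, and with Benjamini-Hochberg adjustment over all covered promoters. Sums and counts over the family carry no test.

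The members, comparison lists and motifs were chosen with earlier results of these data known. Genes named were the 6 members, the GBP and IFNγ-response lists, chromosome 22 neighbours within 200 kb, cell type markers (some are not reported here), ZBTB48 and, for each member covered in all libraries, the 5 promoters closest in scaled covered length, of which the 2 closest are printed. The APOL4 comparison within 1 kb is shown in full because of its values.

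The alternatives were a −log10 q minimum of 3, a fold enrichment minimum of 4, the 21712 strongest peaks of every list by −log10 p, a 1 kb window, the 5′ ends of all transcripts, at least 500 bp under peaks, the within-library percentile, scaling by the library median, WT replicate 3 against the KO libraries, a block for replicate number, and omission of single libraries in turn. The code for covered length and separation was run on simulated lists, in which 200 of 200 shortened promoters among 16995 were recovered. The simulated shortening was larger than the simulated spread, so full recovery was built in. The simulated lists also lacked the wider peaks of WT replicates 1 and 2. This run checked the code and says nothing about power in the real lists. Python 3.11.15, numpy 2.4.6, scipy 1.17.1 and matplotlib 3.10.9 were used.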

Additional observations from a re-analysis of the deposited data

How the results depend on the processing

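The 15 alternatives for each covered gene left the WT excess at APOL3, APOL4 and APOL6 in the same direction, but scaling by the library median cut it to 479.7 bp at APOL4 and 51.8 bp at APOL6 (exact permutation p = 0.6 and 0.8). It turned round at APOL1 and APOL2 on both scales that allow for the wider peaks of WT replicates 1 and 2. By percentile within the library WT minus KO was -24.0 points at APOL1 and -14.3 points at APOL2, and after scaling by the library median the difference was -613 and -550 bp (exact permutation p = 0.2 and 0.3 on each scale). WT replicate 3 against the KO libraries gave 733 bp at APOL3, 241 bp at APOL4 and 148 bp at APOL6, in place of 1585, 1271 and 1261 bp, and 1986 bp for the sum over the family, in place of 5369.7 bp. This sum moved to 28.7 bp after scaling by the library median, to 2609 bp with the 1 kb window and to 7886 bp with fold enrichment of at least 4. The last setting removed peaks of the lists with low fold enrichment and raised the difference in called members from 0.333 to 2. WT replicate 3 then kept a call at APOL1 and APOL4 only, and each KO library at APOL1 and APOL6 only. The difference thus came from WT replicates 1 and 2, the lists with high fold enrichment. The share of all promoters called at this setting was not computed.

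Leaving out each library in turn gave differences of 225 to 583 bp at APOL1, 671 to 1081 bp at APOL2, 1279 to 2012 bp at APOL3, 809 to 1785 bp at APOL4, 888 to 1817 bp at APOL6 and 4482 to 7061 bp for the sum, 0 at APOL5, and 0 to 0.5 called members. For APOL3, a further pair of alternatives chosen after seeing the data left out KO replicate 1 on the other scales and gave 11.6 percentile points and 217 bp after scaling, against 24.1 points and 660.3 bp with all libraries. No call could be lost, since no test in this design can pass 0.05. The deviations of same-numbered libraries from their group means correlated at -0.111, -0.0213 and -0.00897 over 13399 promoters. Those of differently numbered libraries correlated at -0.0824 to 0.0907. These weak values gave no sign that the replicate numbers pair the clones, but they cannot show how the clones were handled. With the replicate number as a block the differences stayed at 440, 813, 1585, 1271 and 1261 bp for APOL1, APOL2, APOL3, APOL4 and APOL6, with exact p of 0.25, or 0.5 at APOL4, where 0.25 is the smallest possible. The number of reads behind each peak is unknown, which limits what the missing APOL4 call in KO replicate 1 can show.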
